A study of Homo sapiens with 6 samples.

Results

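The CHD chromatin remodellers described here are 8 genes, CHD1, CHD2, CHD3, CHD4, CHD6, CHD7, CHD8 and CHD9, taken by symbol from the 24305 genes of the deposited tables. All 8 passed the filter on low counts that left 14452 genes for testing. They were measured in bulk RNA of DU 145, an established human prostate cancer line of epithelial cells that the series design uses as its model deficient in homologous recombination repair. One group of 3 libraries had talazoparib, an inhibitor of PARP1 and PARP2, for 48 h, and the other group of 3 libraries had the solvent control for 48 h, spelled DMOS in the labels and read here as DMSO. Cells were given 5, 10 or 20 µM according to the series design; which of these the sequenced libraries had is not in the labels. No source used here says that the 3 libraries of a group came from separate cultures, so a p-value sets a difference against the spread of these 3 libraries, part or all of which may be technical. In bulk RNA, a lower level in every cell and fewer cells with the transcript cannot be told apart.

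CHD proteins slide, evict or exchange nucleosomes with an ATPase motor of the SNF2 type and hold paired chromodomains, which bind histone tails or DNA. The family has 3 subfamilies: CHD1 and CHD2, which act at active promoters and along transcribed genes; CHD3 and CHD4 (with CHD5), the motor subunits of the NuRD deacetylase complex; and CHD6 to CHD9, large proteins of enhancers and promoters. Loss of CHD1 is frequent in prostate cancer, and CHD2, CHD3 and CHD4 are known to be brought to DNA breaks through the ADP-ribose chains that PARP enzymes make.

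The coding sequence of the motor is shown because every member has this motor, although other SNF2-family ATPases share it. The sequence also lets a reader see which members are paralogs and how their base composition differs. Each line gives 120 bases of the longest protein-coding transcript in GENCODE release 29 (GRCh38), 5′ to 3′ on the coding strand, with the 12 bases that encode the DEAH box, the ATP-hydrolysis motif, in capitals. CHD7 is left out of the lines.
CHD1 (chr5:98893502-98894611, minus strand, exons 13 and 14): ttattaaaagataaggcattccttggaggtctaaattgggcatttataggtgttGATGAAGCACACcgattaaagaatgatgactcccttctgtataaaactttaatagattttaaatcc
CHD2 (chr15:92955498-92956563, plus strand, exons 15 and 16): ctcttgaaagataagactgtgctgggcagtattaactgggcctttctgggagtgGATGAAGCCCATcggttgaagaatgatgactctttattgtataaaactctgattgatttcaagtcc
CHD3 (chr17:7899944-7900319, plus strand, exons 16 and 17): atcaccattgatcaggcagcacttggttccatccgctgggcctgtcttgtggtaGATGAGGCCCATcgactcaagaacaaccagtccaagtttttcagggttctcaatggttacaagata
CHD4 (chr12:6592788-6593180, minus strand, exons 17 and 18): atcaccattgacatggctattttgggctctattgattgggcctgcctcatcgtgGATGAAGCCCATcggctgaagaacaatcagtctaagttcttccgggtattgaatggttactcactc
CHD6 (chr20:41488428-41488547, minus strand, exon 13): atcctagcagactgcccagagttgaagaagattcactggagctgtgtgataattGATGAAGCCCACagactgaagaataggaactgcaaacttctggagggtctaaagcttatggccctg
CHD8 (chr14:21406856-21406975, minus strand, exon 14): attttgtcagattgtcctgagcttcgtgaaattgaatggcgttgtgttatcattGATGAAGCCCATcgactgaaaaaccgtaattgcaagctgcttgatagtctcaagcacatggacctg
CHD9 (chr16:53242897-53243016, plus strand, exon 13): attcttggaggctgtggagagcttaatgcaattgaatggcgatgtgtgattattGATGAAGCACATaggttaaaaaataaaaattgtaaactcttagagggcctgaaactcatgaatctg

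Paralogs share most of these bases. CHD1 and CHD2 were identical at 89 of the 120, CHD3 and CHD4 at 85, and CHD8 and CHD9 at 83, while CHD1 and CHD9 were identical at 55. Pairs within a subfamily ran from 76 (CHD7 and CHD9) to 93 (CHD7 and CHD8). Pairs across subfamilies ran from 52 (CHD1 and CHD6) to 72 (CHD2 and CHD4), so some of them also share most bases. Within a subfamily the base composition still differed. G and C made up 32.5% of the stretch in CHD1 and 41.7% in CHD2, and 36.7% in CHD9 against 46.7% in CHD6. The same held for the whole coding sequence at the third codon position, which mostly varies without changing the protein: G and C took 30.3% in CHD1 and 31.3% in CHD9, 47.6% to 54.8% in CHD2, CHD6, CHD7 and CHD8, 56.8% in CHD4 and 65.2% in CHD3.

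Each library held between 39123997 and 39585727 counts, and the 8 members together took 26476 to 36371 counts of a library. The labelled epithelial type had high KRT8 (583 ± 61.5 CPM in controls, SD, n = 3) and KRT18 (526 ± 70.0), whereas EPCAM (4.74 CPM) and CDH1 (1.37 CPM) were low. Leukocyte markers summed to at most 0.0521 CPM and endothelial markers to at most 0.611 CPM in a library; fibroblast markers summed to 2.49 to 2.63 CPM in controls and 2.08 to 3.05 CPM with talazoparib, all of it COL1A1, with COL1A2 and DCN at 0. CPM here are counts relative to library size (per 1e6) with the sizes scaled by TMM, a scaling that sets the typical gene equal between libraries.

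Per length, the 8 genes covered a wide range of levels in control cells. FPKM, the deposited unit, divides the count by gene length and library total and so allows genes to be compared. CHD4 was the most abundant with 50.7, 55.0 and 54.3 FPKM in control replicates 1 to 3, followed by CHD3 with 24.8, 26.8 and 26.4 and by CHD8 with 17.3, 21.8 and 21.6. CHD2 averaged 3.91 ± 0.881 FPKM (SD, n = 3), CHD7 3.74 ± 0.779, CHD6 2.66 ± 0.543, CHD1 1.74 ± 0.377 and CHD9 0.871 ± 0.283. The ranges of CHD2 and CHD7 overlapped in the controls, and their order differed between libraries, with 2.93, 4.65 and 4.13 FPKM for CHD2 and 2.84, 4.22 and 4.17 FPKM for CHD7. Those of CHD7 and CHD6 overlapped as well, but CHD7 was above CHD6 (2.03, 2.96 and 2.98 FPKM) in every control. The other neighbours in the order did not overlap. The order of the 8 means was the same with talazoparib, where no neighbours overlapped.

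**Figure D1:**
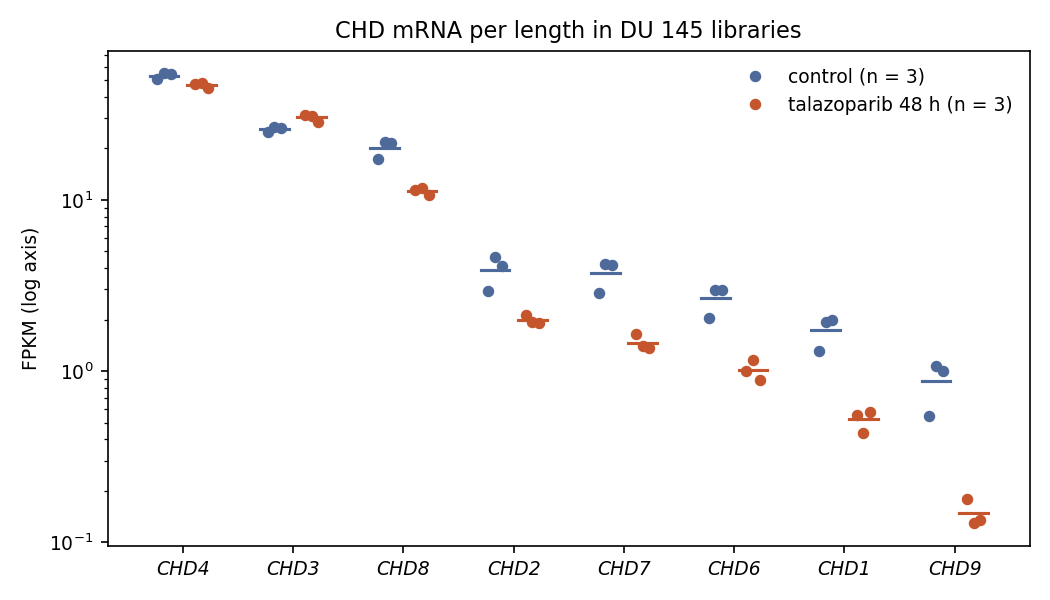
FPKM of each CHD gene (log axis) in the 3 control and 3 talazoparib libraries, 1 point per library with a line at the group mean, ordered by control level. CHD4, CHD3 and CHD8 lie above 10 FPKM in every library and the other 5 genes below 5; control replicate 1, the leftmost blue point of each gene, is the lowest control.

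The members were chosen by their talazoparib against control values in these same libraries, with those results in view, so their changes are given as a description and support nothing. By edgeR's test over all 14452 genes at an adjusted p of 0.05, 6 of the 8 were lower (29.9% of all tested genes were), 1 was higher (26.8% of all were) and 1 did not pass, so that 7 of 8 were called beside 56.7% of all tested genes. The CPM of the groups did not overlap for any of the 8, as for 64.4% of all tested genes. Talazoparib was the lower group in 7 of them (32.8% of all tested genes). The median log2 fold change of the 8 was -1.08, against 0.00 over all tested genes, and 4 of them were below -1 (9.75% of all tested genes were called lower with a change of that size).

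Among the 4 genes of the CHD6 to CHD9 subfamily all were lower with talazoparib. CHD9 (chromosome 16, 53055033 to 53329150), a remodeller first described in mesenchymal progenitors, had 7.11, 13.2 and 12.5 CPM in control replicates 1 to 3 and 2.40, 1.75 and 1.75 CPM in talazoparib replicates 1 to 3. Even the lowest control, replicate 1, was well above the highest talazoparib library, and the mean with talazoparib was 18.0% of that in controls (log2 fold change -2.48 ± 0.25, SE). These levels rest on 280 to 542 counts in a control library and 66 to 92 in a talazoparib library. Of the 14452 tested genes, 16 had a lower log2 fold change, which makes CHD9 number 17 from the bottom.

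CHD6 (chromosome 20, 41402101 to 41618494), which acts in the response to oxidative DNA damage, stood at 27.3, 37.8 and 38.8 CPM in the controls and at 13.9, 16.2 and 11.9 CPM with talazoparib. CHD7 (chromosome 8, 60678778 to 60868028), an enhancer-binding remodeller mutated in CHARGE syndrome, stood at 35.2, 49.4 and 49.8 CPM and at 21.0, 18.0 and 16.7 CPM. In both genes control replicate 1 was the lowest control and still above every talazoparib library. Their log2 fold changes, -1.30 ± 0.15 for CHD6 and -1.27 ± 0.14 for CHD7, differed by less than either SE. CHD8 (chromosome 14, 21385194 to 21456126), which binds β-catenin and CTCF and is the abundant member of this subfamily, went from 149, 177 and 179 CPM to 100.4, 106 and 90.9 CPM. Its log2 fold change of -0.77 ± 0.09 was the smallest of the 4, with 58.8% of the control level left, and its groups did not overlap.

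Both genes of the CHD1 and CHD2 pair were lower as well, CHD1 more so. CHD1 (chromosome 5, 98853985 to 98928957), which reads the promoter mark H3K4me3, had 12.4, 17.4 and 18.2 CPM in the controls and 5.39, 4.33 and 5.43 CPM with talazoparib. The talazoparib libraries were close together, and their mean was 31.6% of the control mean (log2 fold change -1.66 ± 0.17). CHD2 (chromosome 15, 92900189 to 93028005), which deposits the histone variant H3.3, had 28.0, 42.1 and 38.1 CPM in the controls and 20.8, 19.4 and 18.1 CPM with talazoparib. The gap between its groups was narrower, since control replicate 1 lay nearer to the talazoparib libraries, and the log2 fold change was -0.89 ± 0.14. The FPKM ratio of CHD1 to CHD2 was 0.447 ± 0.0330 in controls and 0.263 ± 0.0386 with talazoparib (SD, n = 3 each), without overlap. A correction by gene for GC content (38.1% and 46.8%) can change this ratio.

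The NuRD pair stood apart from the rest. CHD3 (chromosome 17, 7884806 to 7912760) had 203, 207 and 208 CPM in the controls and 265, 265 and 234 CPM with talazoparib. It was the 1 member called higher, every talazoparib library lay above every control, and the log2 fold change was 0.30 ± 0.07. CHD4 (chromosome 12, 6570082 to 6614524) had 331, 340.4 and 342 CPM in the controls and 317, 330.2 and 293 CPM with talazoparib; the groups were separated by less than 1 CPM, and the log2 fold change of -0.11 ± 0.07 did not pass. The FPKM ratio of CHD3 to CHD4, which no scaling between libraries can change, was 0.486 to 0.490 in the 3 controls and 0.638 to 0.667 in the 3 talazoparib libraries. A correction by gene for GC content (56.1% and 51.8%) or length (8138 and 6500 nt) can change that ratio. CHD3 overlaps NAA38 on the other strand of the annotation, NAA38 was itself higher (0.64 ± 0.11; edgeR adjusted p = 0.000298), and the strand setting of the counting is not given in the sources used here, so the share of reads from NAA38 in CHD3 was not tested.

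The make-up of the family's mRNA lay further toward CHD3 and CHD4 with talazoparib. Their share of the summed FPKM of the 8 genes was 70.7% ± 2.60 in controls and 82.5% ± 0.146 with talazoparib, without overlap. CHD3 went from 23.2% ± 0.920 to 32.4% ± 0.434 of the sum and CHD4 from 47.5% ± 1.68 to 50.1% ± 0.566. The CHD4 shares of the groups overlapped (49.4% in both control replicate 1 and talazoparib replicate 1). The CHD6 to CHD9 share went from 24.4% ± 1.87 to 14.8% ± 0.226, most of it CHD8, and that of CHD1 and CHD2 from 4.98% ± 0.749 to 2.68% ± 0.181. The sum itself was 112 ± 8.69 FPKM in controls and 93.8 ± 3.98 FPKM with talazoparib. All these shares are of uncorrected FPKM, and a correction by gene for GC content or length can change them.

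Length and base composition of the mRNA move with these changes. The members are long: their deposited lengths ran from 6500 nt (CHD4) to 13423 nt (CHD6), and all 8 were in decile 8 or above of the tested genes. In the longest decile, which holds CHD2, CHD6, CHD7 and CHD9, 62.2% of all genes were lower and 6.02% higher, with a median log2 fold change of -0.64. By the GC content of the transcript, CHD1 (38.1%) and CHD9 (38.4%) lay in the lowest decile, where 66.0% of genes were lower and 1.17% higher. CHD2, CHD6, CHD7 and CHD8 lay in decile 5 (32.9% lower, 12.7% higher), CHD4 with 51.8% GC in decile 6, and CHD3 with 56.1% GC in decile 8 (3.94% lower, 54.4% higher). The 2 members with the lowest GC content were those with the lowest log2 fold changes, and the member with the highest GC content was the 1 that was higher. The part of length and base composition in these differences was not tested beyond the fits that remove their trend.

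**Figure D2:**
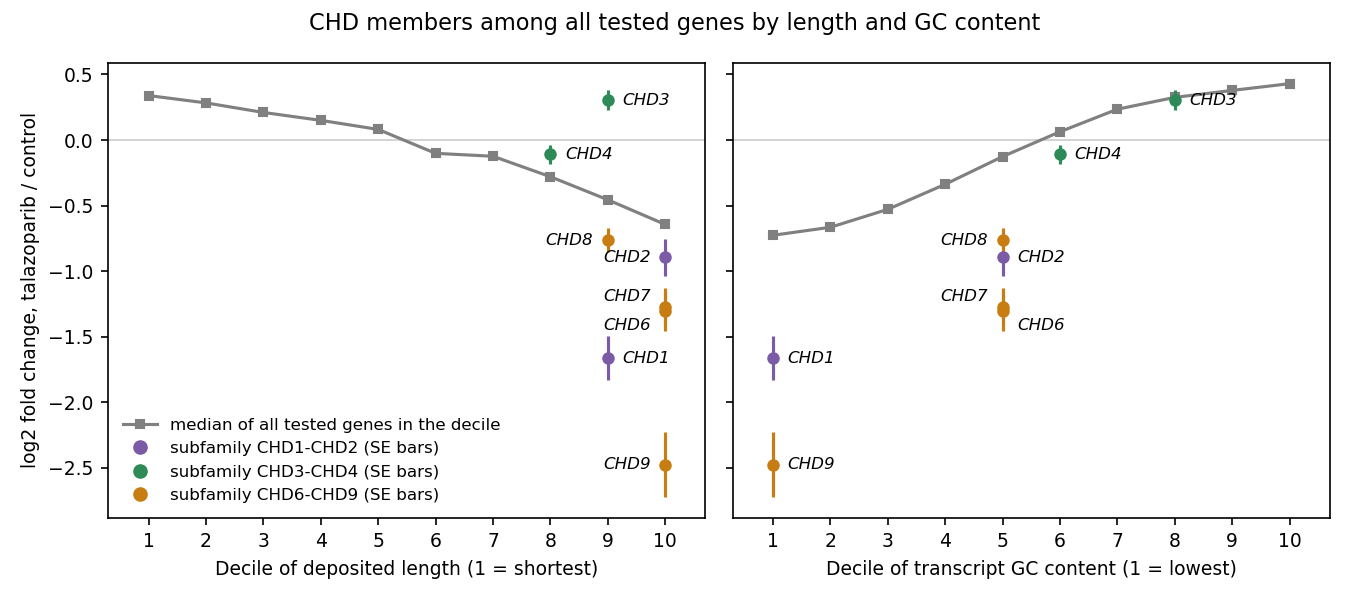
Log2 fold change of each CHD gene (point, SE bar, coloured by subfamily) against its decile of deposited length (left) and of transcript GC content (right), with the median of all tested genes per decile in grey. CHD1, CHD2, CHD6, CHD7, CHD8 and CHD9 lie below the grey line in both panels; CHD3 and CHD4 lie above it by length, and by GC content CHD3 lies on it at 0.30 and CHD4 a little below it at -0.11.

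Among genes that share both a member's length decile and its GC decile (deciles of the 13717 genes with both values, where CHD2 is in length decile 9), the 6 lower members lay in the lower part of the range. The members were chosen by these same values, so their places are a description and support nothing. CHD9 had a lower log2 fold change than all but 2 of the 262 other genes of its 2 deciles, whose median was -1.06. For CHD1, 19 of 227 genes were lower than it (median -0.92). For CHD6 and CHD7, which share their deciles, 15 and 16 of 154 were (median -0.57), and for CHD2 and CHD8, which also share theirs, 13 and 24 of 152 (median -0.36). CHD3 at 0.30 was above 62 of its 88 genes (median 0.20, quartiles -0.14 and 0.37) and CHD4 at -0.11 above 55 of 125 (median -0.01), both between the quartiles.

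With the trend of each library over GC content and length removed in the same edgeR test, the 6 lower members were nearer to 0 and kept their call, beside 22.2% of all genes lower and 21.9% higher (44.1% either way) in that fit. CHD9 went to -1.43 ± 0.19, CHD7 to -0.76 ± 0.09, CHD6 to -0.74 ± 0.12, CHD1 to -0.73 ± 0.11, CHD8 to -0.48 ± 0.06 and CHD2 to -0.41 ± 0.10. CHD1 was then level with CHD6 and CHD7. CHD3 was at 0.28 ± 0.04, called higher, and CHD4 at -0.06 ± 0.04, not called. The values of this pair depended on which trend was taken out: with GC content alone removed CHD3 was at 0.03 and not called and CHD4 at -0.20 and called lower, and with length alone removed CHD3 was at 0.76 and CHD4 at 0.22, both called higher.

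**Figure D3:**
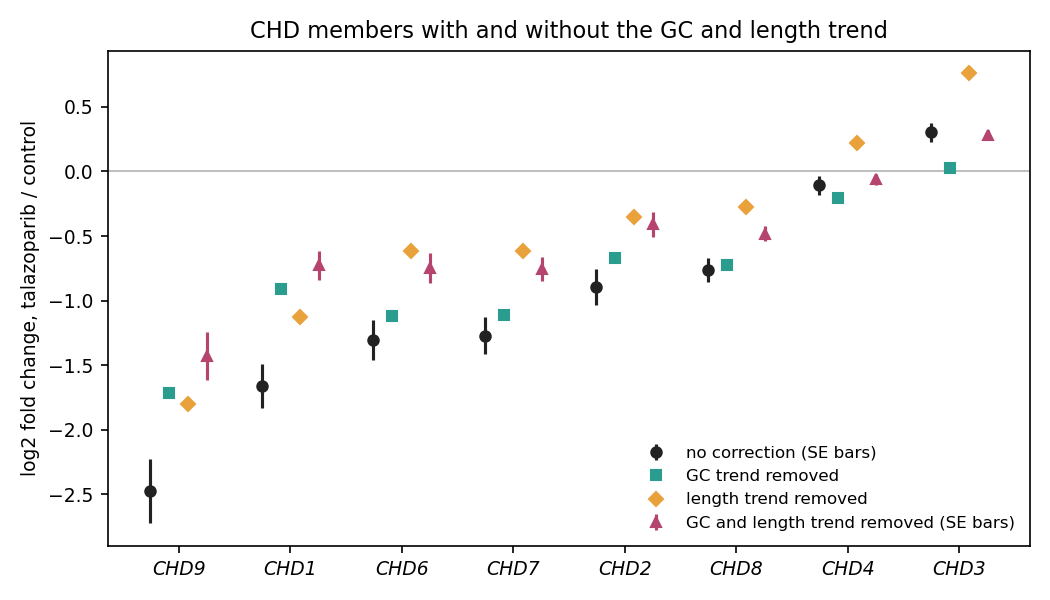
Log2 fold change of the 8 CHD genes (talazoparib over control, 3 libraries each) without correction and with the trend over GC content, over length or over both removed. CHD9 is lowest in all 4 fits, from -2.48 to -1.43; CHD4 crosses 0 with length alone removed (0.22) and CHD3 comes near 0 with GC content alone removed (0.03).

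Control replicate 1 lay apart from the other controls in the members that were lower with talazoparib; its part in the results was not tested beyond leaving it out. It was the lowest control for all 8 members (41.7% of all tested genes were below both other controls there). Its log2 CPM was below the mean of control replicates 2 and 3 by 0.85 for CHD9, by 0.49 to 0.52 for CHD1, CHD2, CHD6 and CHD7, by 0.26 for CHD8, and by 0.04 and 0.05 for CHD3 and CHD4. The members' median was -0.49, against 0.00 over all tested genes. Without this library the log2 fold changes were -2.75 for CHD9, -1.85 for CHD1, -1.49 for CHD6, -1.46 for CHD7, -1.09 for CHD2 and -0.89 for CHD8, each farther from 0 than with it. CHD3 was at 0.25, and CHD4 at -0.16 was then called lower.

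The 2 relatives outside the 8 did not pass. CHD5, the other NuRD motor and mainly a neuronal gene, had a control mean of 3.54 CPM and a talazoparib mean of 2.63 CPM (-0.43 ± 0.20; edgeR adjusted p = 0.0866). CHD1L, a remodeller switched on by ADP-ribose chains, had means of 169.9 and 166 CPM (-0.04 ± 0.07; edgeR adjusted p = 0.682). With the GC and length trend removed CHD5 was called lower (-0.48) and CHD1L higher (0.19).

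Other SNF2-family ATPases, which share the motor of the CHD proteins, were mostly lower: 19 of 21 fell, none rose (29.9% of all tested genes were lower and 26.8% higher) and 2 (SMARCA4 and RAD54L, named after their values were seen) did not pass. Their median log2 fold change was -0.75. SHPRH, a ubiquitin ligase of damage tolerance, fell from 7.65 ± 1.36 to 2.15 ± 0.203 CPM (edgeR adjusted p = 1.55e-05), and SMARCA5, the ISWI motor, from 161 ± 21.3 to 74.0 ± 8.04 CPM (edgeR adjusted p = 1.60e-05). These ATPases are long too, with a median of 8077 nt. With the GC and length trend removed 14 of them were lower, none was higher and the median was -0.31; with length alone removed 12 were lower and 1 higher.

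Of the 12 other NuRD subunits, 6 fell, 2 rose and 4 did not pass (median -0.17). Of all tested genes, 29.9% were lower and 26.8% higher, so falls took a larger part of this list and rises a smaller one. Taken in either direction, 8 of the 12 were called, beside 56.7% of all tested genes. The deacetylase HDAC2 fell from 83.4 ± 9.80 to 45.6 ± 5.88 CPM (edgeR adjusted p = 6.70e-05) and GATAD2B, which links the motor to the deacetylase core, from 85.6 ± 2.62 to 62.2 ± 3.09 CPM (edgeR adjusted p = 0.000366). MBD3, a core scaffold, rose (log2 fold change 0.30; edgeR adjusted p = 0.0137), as did HDAC1 (0.25; edgeR adjusted p = 0.0172). Without control replicate 2 or 3 neither rise passed (MBD3 0.20 and 0.23), and HDAC1 was also lost without talazoparib replicate 1 or 2 (0.20 to 0.22 over its 4 fits). With the GC and length trend removed 2 subunits were lower and 2 higher. HDAC2 (0.08), GATAD2B (-0.11) and MBD3 (0.01) did not pass there, while HDAC1 did (0.18). RBBP4, named after its values were seen, turned from lower (-0.27) to higher (0.47). Its lower call was lost without control replicate 2 or 3 or talazoparib replicate 2 (-0.31 to -0.16). Without talazoparib replicate 3, 4 subunits were higher.

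All 5 partners of CHD4 in the ChAHP complex and HP1 genes fell (median -0.70), beside 29.9% of all tested genes lower. CBX5, which encodes HP1α, fell from 91.3 ± 14.8 to 38.9 ± 2.79 CPM (edgeR adjusted p = 1.26e-05) and the DNA-binding subunit ADNP from 105 ± 8.12 to 64.7 ± 0.443 CPM (edgeR adjusted p = 3.11e-05). Trend-removed, 4 were lower (22.2% of all genes were), CBX5 at -0.33, while ADNP at 0.16 did not pass. With length alone removed 3 were lower.

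Of 10 elongation factors that work with CHD1, 4 fell and 3 rose (median -0.16), near the shares of all tested genes (29.9% and 26.8%). The FACT subunit SUPT16H fell from 188 ± 23.7 to 74.3 ± 3.30 CPM (edgeR adjusted p = 3.37e-06) and the PAF complex scaffold CTR9 from 27.5 ± 3.43 to 14.5 ± 0.961 CPM (edgeR adjusted p = 6.65e-05); both were lower trend-removed (-0.95 and -0.56). The pausing factor SUPT5H rose by 0.55 (edgeR adjusted p = 7.36e-05), and its partner SUPT4H1 by 0.25 (edgeR adjusted p = 0.0194), a rise lost without control replicate 2 or 3 or talazoparib replicate 1 or 2 (0.19 to 0.27). PAF1 (0.21), named after its values were seen, was lost without the same libraries, so that 1 of the 10 rose in each of those 4 fits. Trend-removed, 4 were lower and 1, SUPT5H (0.22), was higher; PAF1 was among the lower ones there (-0.17).

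Of 6 partners of CHD7 and CHD8, 3 fell and none rose (median -0.17), beside 29.9% of all tested genes lower. With GC content alone removed 0 of the 6 were lower and 2 were higher. RBBP5, a subunit of H3K4 methyltransferases, fell from 28.7 ± 1.90 to 19.0 ± 2.37 CPM (edgeR adjusted p = 0.000960) and the insulator protein CTCF from 99.7 ± 3.34 to 80.3 ± 7.17 CPM (edgeR adjusted p = 0.00685). CTNNB1, the β-catenin gene, named after its values were seen, was called lower at -0.28, a call lost without control replicate 2 or 3 or talazoparib replicate 1 or 2 (-0.29 to -0.20), and higher trend-removed at 0.20. Without control replicate 1 or talazoparib replicate 3, 1 of the 6 was higher. Trend-removed, 2 of the 6 were higher and 1, CTCF (-0.20), was lower.

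Beta-catenin target genes, a readout that CHD8 is known to hold down, fell in 7 of 9 tested and rose in 1 (median -0.37). Of all tested genes, 29.9% were lower and 26.8% higher. NKD1, a feedback inhibitor of the pathway, fell from 3.46 ± 0.234 to 1.49 ± 0.253 CPM (edgeR adjusted p = 0.000391) and the cyclin gene CCND1 from 411 ± 2.86 to 319 ± 8.87 CPM (edgeR adjusted p = 0.000657). SP5 rose by 0.54 (edgeR adjusted p = 0.0263), a call lost without control replicate 1 or 3 or talazoparib replicate 1 (0.36 to 0.52), with total-count scaling, on both FPKM scales and with GC content removed, and LGR5 and RNF43 were too low to test. Leaving out control replicate 2 or 3 left 4 falls, and leaving out talazoparib replicate 1 left 3. Trend-removed, 6 were lower (22.2% of all genes were) and none higher, with a median of -0.39. With length alone removed 3 were lower and 1 higher.

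**Figure D4:**
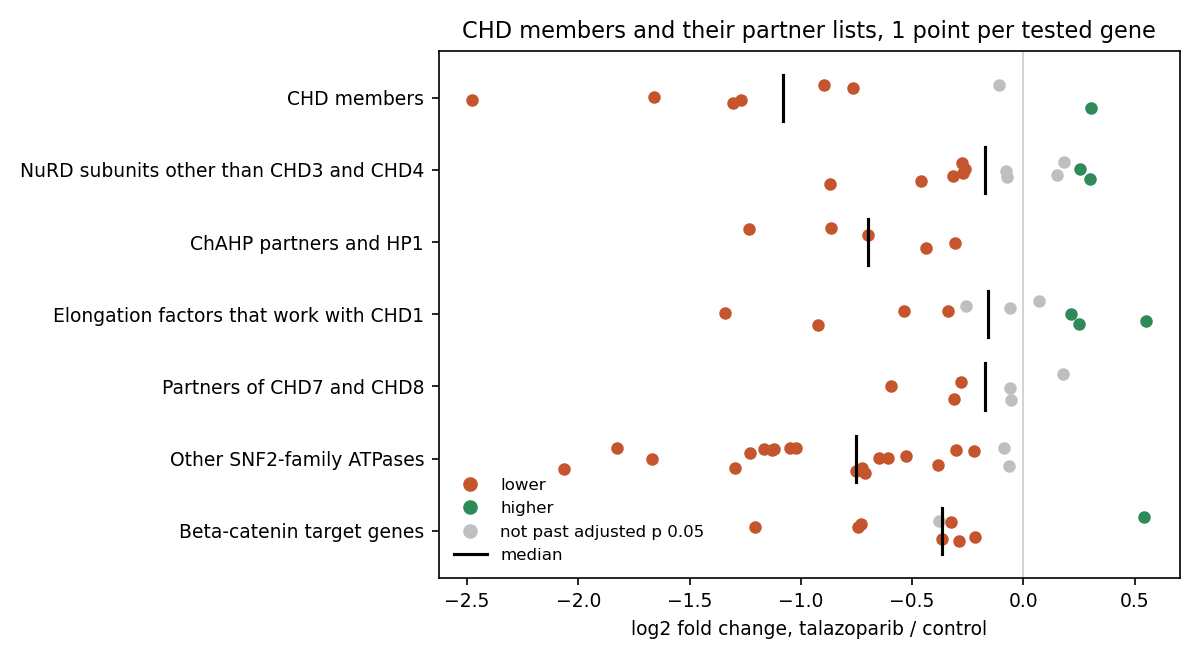
Log2 fold change (talazoparib over control, 3 libraries each) of the CHD members and of the tested genes of 6 partner lists, 1 point per gene, coloured by its call in edgeR's test, with the median of each list as a bar. The medians are -1.08 for the CHD members, -0.75 for the other SNF2-family ATPases and -0.70 for the ChAHP partners and HP1. They are -0.37 for the beta-catenin target genes, -0.17 for the NuRD subunits and for the partners of CHD7 and CHD8, and -0.16 for the elongation factors.

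Of the 16 nearest tested genes on the genome, 1 on each side of each member and up to 1839434 bp away, 5 were lower, 5 higher and 6 not called, which is near the shares of all tested genes (29.9% lower and 26.8% higher). CHASERR, a long noncoding RNA gene that lies 488 bp before CHD2 on the same strand and is known to hold down CHD2 in cis, had 36.1, 38.8 and 36.2 CPM in the controls and 45.2, 39.8 and 55.9 CPM with talazoparib. The groups did not overlap, talazoparib replicate 2 was close to the controls, and the log2 fold change was 0.34 ± 0.12 (edgeR adjusted p = 0.0228). That call was lost without any 1 of the controls or without talazoparib replicate 3 (0.20 to 0.35) with total-count scaling (0.27), on both FPKM scales (0.25 and 0.24) and with length alone removed (0.16). With GC content and length removed CHASERR was at 0.79 and called higher. CHD8 and its neighbour SUPT16H, 928 bp away and on the same strand, were both lower. Next to CHD4, ING4 was higher (9.09 to 15.3 CPM), next to CHD6, LPIN3 was higher (13.2 to 18.0 CPM) and SRSF6 lower (139 to 98.1 CPM), and next to CHD9, RBL2 was lower (50.9 to 32.2 CPM). Around CHD1, RGMB was lower (29.3 to 19.0 CPM) and FAM174A higher (6.50 to 9.95 CPM), and beyond CHD2, MCTP2 was lower (2.25 to 1.11 CPM). With the GC and length trend removed, RGMB, FAM174A, CHASERR, ING4 and SUPT16H kept their calls. LPIN3 (0.20), SRSF6 (0.11), RBL2 (-0.15), MCTP2 (-0.13) and NAA38 (0.11) were not called there, and RAB2A (0.76) and ASPH (0.82) next to CHD7, named after their values were seen, were called higher.

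For each member, the gene outside the family with the most similar pattern was found as the one with the smallest Euclidean distance in log2 CPM, centred on the gene's mean, over the 6 libraries, among 10100 genes with a mean of at least 5 CPM. As the libraries form 2 groups, likeness rests mostly on the difference between them. CHD9 was most like VPS13A (44.7 ± 13.8 to 9.18 ± 1.15 CPM; distance 0.25) and CHD1 most like METAP2 (67.7 ± 13.2 to 22.1 ± 3.49 CPM; 0.12). CHD7 was nearest to IQGAP1 (0.12), CHD6 to NCR3LG1 (0.12), CHD2 to NBPF14 (0.12), a gene of a multicopy family whose reads can be split among copies, and CHD8 to ZNF623 (0.06). CHD3 was nearest to BACE1 (41.7 ± 0.731 to 51.2 ± 3.26 CPM; 0.02) and CHD4 to CYFIP1 (0.04). Within the family the closest pairs were CHD2 with CHD8 (0.30) and CHD6 with CHD7 (0.33). CHD2 was thus nearer to CHD8 than to its paralog CHD1. Other genes came closer than these members: 169 were nearer to CHD2 than CHD8 was, and 337 nearer to CHD8 than CHD2 was. For CHD6 and CHD7 these numbers were 43 and 167. CHD9 was farthest from the others, at 1.04 from CHD1.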

How the data were processed

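Bulk RNA of 6 DU 145 libraries was analysed, 3 with talazoparib and 3 controls. The deposited count table holds whole-number counts per gene symbol. The authors' FPKM table equals those counts divided by a length and the column total: implied lengths were whole within 0.01 nt for 99.957% of 21065 genes, and were used as gene lengths. The submitters' processing notes name Trimmomatic, HISAT2, HTSeq, Cufflinks and GRCh38; the sources used here give no versions, annotation or strand setting.

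Counts were tested with edgeR 4.0.16 (R 4.3.3; filterByExpr with a minimum count of 10, TMM, robust quasi-likelihood test, Benjamini-Hochberg over all genes tested), after the scripts were tested on simulated data. The SE is the absolute log2 fold change over the square root of F. GC content is that of the longest GENCODE 29 transcript, known for 13717 tested genes (94.9%). Trends were natural splines with 5 degrees of freedom over GC content and log2 length. They were fitted, per library, to the deviation of log2 CPM (prior count 2) from the gene's mean over the libraries and entered as offsets. Any difference between the groups that goes with GC content or length is thereby removed too. DESeq2 1.42.0, limma 3.58.1 (voom, and log2 of FPKM plus 0.1 or 1), other scalings, no filter, a replicate block and leaving out each library were alternatives.

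The members and lists were chosen with earlier results of these data known. Named genes are the members, CHD5 and CHD1L, up to 2 genes per direction and list with the smallest adjusted p, untested list genes, called neighbours, and the most similar gene per member. Of the list of transcripts at the members' loci, CHASERR alone was tested and rose; CHD1-DT was too low, and the rest were not analysed here, as were KLK2 and KLK3. Some marker genes are not reported here. Of the epithelial markers KRT19 rose from 41.8 to 91.4 CPM.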

Additional observations from a re-analysis of the deposited data

How the results depend on the processing

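The 6 falls among the members (CHD1, CHD2, CHD6, CHD7, CHD8 and CHD9) were called in the same direction in all 18 alternative fits. CHD3 was called higher in 17 of them, the exception being GC trend removal, where no member was higher (0, against 1). With length alone removed 2 members were higher, CHD3 and CHD4; CHD4 was then above 0 (0.22), and it was called lower with total counts, on both FPKM scales, with GC alone removed and without control replicate 1. On the log2(FPKM + 1) scale CHD9 was at -0.69, since a pseudocount of 1 exceeds its level. Leaving out each library in turn gave 6 to 7 lower members and 1 higher in each fit, and over all genes 2622 to 3973 higher and 3731 to 4576 lower. With both trends removed and control replicate 1 left out, an alternative chosen after seeing the data, CHD9 was at -1.58 and CHD2 at -0.51, and 6 members were lower and 1 higher. With the replicate number as a block, 6 members were lower and 1 higher, and over all genes 4161 were lower and 3419 higher, against 4327 and 3873. Same-numbered libraries did not deviate together: their deviations correlated at -0.17 to 0.00, and 0 of 3 controls correlated most with their own number. With 3 libraries per group, this cannot show whether a number marks a shared culture or day. Of the list counts, 224 were within 1.5 times of the reported ones and 48 were not. The 224 include counts that were 0 in both fits, such as ChAHP partners and HP1 genes called higher. CHD9, at 66 to 92 counts with talazoparib, has the least depth of the members.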
